A study of Mus musculus with 2 samples.

Results

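Immune cells were 58 of the 3410 cells kept from 2 single-cell RNA libraries of mouse lung, both labelled as lacking CD45, the surface phosphatase that marks leukocytes. A cell was counted as immune where the leukocyte genes Tyrobp, Cd52, Laptm5 and Coro1a together had at least 3 transcript molecules (unique molecular identifiers, UMIs). This sum also had to exceed both the endothelial sum (Pecam1, Cdh5, Cldn5, Egfl7 and Ramp2) and the mesenchymal sum (Col1a1, Col1a2, Col3a1, Mfap4 and Bgn), and the surfactant gene Sftpc had to stay under 5% of the UMIs. By this rule 43 of 1423 niche cells and 15 of 1987 distal lung cells were immune. The lungs were taken 7 days after Labelling-4T1 cells were injected into a vein, and both groups come from such lungs. 4T1 cells come from a mouse breast tumour and colonise the lung, and the labelling cells release a fluorescent protein that neighbouring cells take up. The titles name 1 library as niche cells and the other as distal lung cells, the first from around the tumour cells and the second from farther away. The labels give neither the mouse strain, its age, the number of mice nor how the niche cells were separated. Each group is 1 library, so no difference between them has a replicate check and no test was possible.

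Leukocytes carry CD45 on their surface, and a sort against it is meant to leave endothelial, mesenchymal and epithelial cells. In the lung, leukocytes include B and T lymphocytes, which recognise antigen through receptors paired with signalling chains. They also include monocytes and macrophages, which engulf particles, and basophils and mast cells, which make histamine. B cells and several kinds of phagocyte present peptides on MHC class II molecules, with the invariant chain encoded by Cd74 guiding their assembly.

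The tables do not list the same genes, which bears on every count of immune cells. The niche table lists 10791 genes and the distal table lists 10814, with 10198 in both, and an unlisted gene cannot be read as 0. Tyrobp and Laptm5 are not listed in the distal table, so the rule there rests on Cd52 and Coro1a. With Cd52 and Coro1a alone used in both tables, 37 niche cells (2.60% of kept cells, exact Clopper-Pearson 95% interval 1.84% to 3.57%) and 15 distal cells (0.755%, 0.423% to 1.24%) were immune. With all 4 genes the niche share was 3.02% (2.20% to 4.05%). The 6 niche cells that only the 4 genes admitted were niche cells 10, 31, 32, 33, 40 and 41, and like cells of the distal library could not have been admitted through Tyrobp or Laptm5. These intervals cover counting error only, and the sort, the dissociation and the depth of each library can set such shares. The kept cells had a median of 2975 UMIs in the niche, against 1975 in the distal library, while the immune cells had 2014 (1311 to 8648) in the niche and 2018 (1340 to 3722) in the distal library. Per cell, they held a median of 756 genes in the niche, against 794 in the distal library. Of the barcodes, 7 occur in both libraries, 1 of them in an immune cell. Scrublet, a doublet caller, marked 10 niche and 27 distal cells, 0 of them immune.

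The rule itself sets the immune cells apart on these sums, so the margins are a description. The marker sum had a median of 8 UMIs (3 to 60) in niche and 6 (3 to 11) in distal immune cells. Just inside the limit, at 3 or 4 UMIs, lay 5 niche and 6 distal immune cells. Just outside it, 2 niche cells and 1 distal cell had 2 UMIs that still led both other sums. A further 5 niche cells with 7 to 15 marker UMIs and 1 distal cell with 3 were left out because another sum was as high or higher. Among immune cells, 16 niche and 7 distal cells had a UMI of the endothelial sum and 21 niche and 4 distal cells a UMI of the mesenchymal sum.

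**Figure D1:**
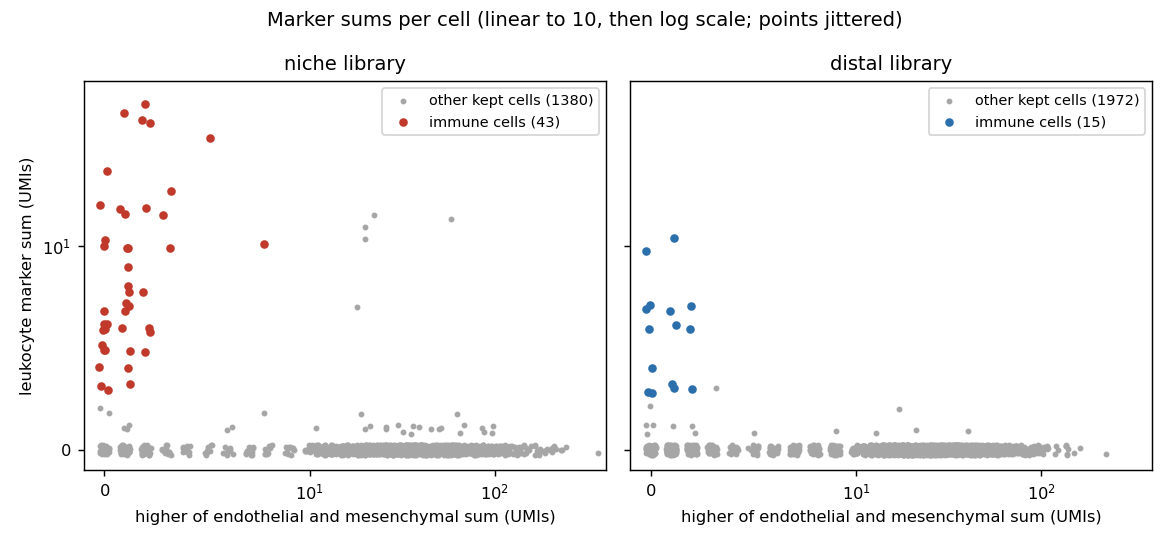
Each point is a kept cell, with the leukocyte marker sum (UMIs) against the higher of its endothelial and mesenchymal sums (UMIs), in the niche library (left) and the distal library (right). Coloured points are the immune cells, 43 in the niche, against 15 in the distal library, and grey points are other kept cells. The immune cells lie near 0 on the horizontal axis, and in the niche library 5 grey cells with 7 to 15 marker UMIs lie far to the right.

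The genes of the rule chose these cells, so their values are a description. In niche immune cells Tyrobp, which encodes the signalling adaptor DAP12, had 210 UMIs in 19 of 43 cells, and Laptm5, a lysosomal membrane protein gene of blood cells, had 36 UMIs in 20. Cd52, which encodes a small glycoprotein abundant on lymphocytes, had 206 UMIs in 38 niche immune cells and 46 UMIs in 12 distal immune cells. Coro1a, which encodes an actin-binding coronin, had 127 UMIs in 36 niche and 40 UMIs in 13 distal immune cells. The endothelial-led cells (499 niche, 1313 distal) and mesenchymal-led cells (786 niche, 372 distal) were chosen by the same rule with the sums exchanged, which sets low levels of these genes in them. Their median depths were 2350 (niche) and 1724 (distal) UMIs in endothelial-led cells and 3569 (niche) and 2147 (distal) UMIs in mesenchymal-led cells.

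Ptprc, the gene of CD45 itself (mm10 chromosome 1, 138062861 to 138175708, minus strand), was not in the rule and was found mostly in these cells. Of its 46 UMIs in kept niche cells, 39 lay in 24 of the 43 immune cells. It had UMIs in 55.8% of niche immune cells, against 0.20% of endothelial-led and 0.382% of mesenchymal-led niche cells. Ptprc is not listed in the distal table. The transcript of CD45 was thus present in cells of a library labelled as lacking its protein on the surface.

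Other genes of leukocytes were also higher in the immune cells. Of 25 genes in a pan-leukocyte list, 18 are listed in the niche table and 14 of these were not in the rule. All 14 were higher per UMI in immune than in both endothelial-led and mesenchymal-led niche cells, as were 23.4% of all 10791 listed genes, and for 7 of them the immune cells held at least 50% of the UMIs. The distal table lists 10 such genes outside the rule, and all 10 were higher in immune cells, as were 23% of all 10814. For 1 of the 10 the immune cells held at least 50% of the UMIs. No share over all listed genes is given here for the counts at 50%. Rac2, a small GTPase gene of blood cells, had 86.7% of its kept UMIs in the niche and 73.0% of its kept UMIs in the distal library in immune cells. Cd53, a tetraspanin gene, had 88.5% and Hcst, the gene of the adaptor DAP10, 88.9% in the niche, and the distal table lists neither. Srgn, which encodes the proteoglycan serglycin and is also used by endothelial cells, had 15.03% in the niche, against 1.31% in the distal library.

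**Figure D2:**
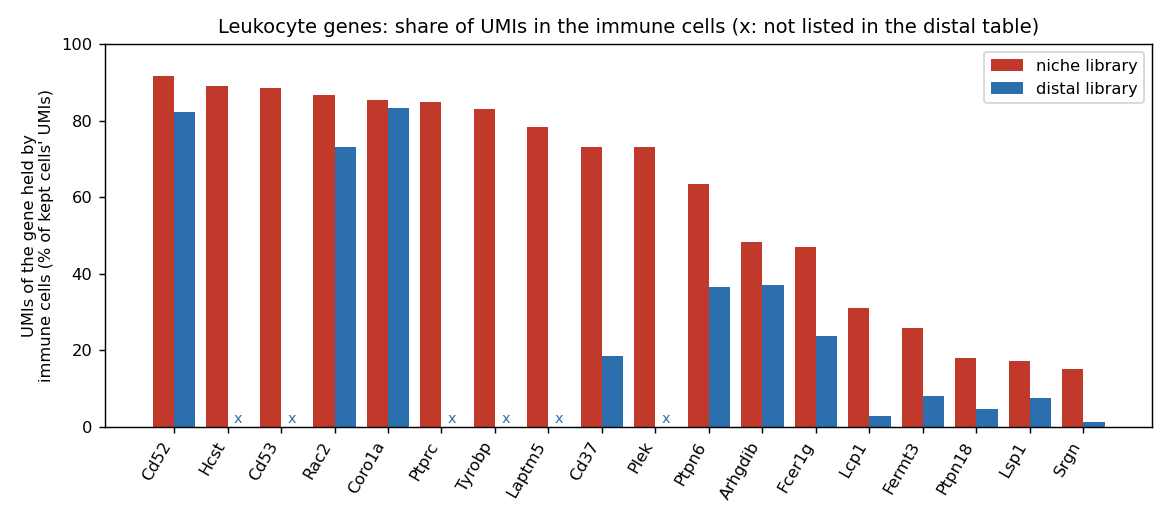
Bars give, for each listed gene of the pan-leukocyte list, the percent of its UMIs in kept cells that immune cells held, with the niche library left of the distal library and a cross where the distal table does not list the gene. Ptprc stands at 84.8% in the niche, and Srgn at 15.03% in the niche, against 1.31% in the distal library.

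The 58 immune cells fell into 4 clusters, and every cluster held cells of both libraries. The clusters were made from the expression values, so the genes that lead them describe them and were not tested. B cell-like cells were 11 of 43 niche (25.6%, 13.5% to 41.2%) and 6 of 15 distal immune cells (40.0%, 16.3% to 67.7%). A cluster with Dusp10, Igfbp4 and Lef1 as its leading genes, called the Lck Lef1 cluster here, held 12 niche (27.9%, 15.3% to 43.7%) and 4 distal cells (26.7%, 7.79% to 55.1%). A cluster of mostly monocyte- and macrophage-like cells, called phagocytes here, held 8 niche (18.6%, 8.39% to 33.4%) and 2 distal cells (13.3%, 1.66% to 40.5%). The last cluster, mixed and without a name, held 12 niche (27.9%, 15.3% to 43.7%) and 3 distal cells (20%, 4.33% to 48.1%). The niche and distal intervals of each cluster's share overlap.

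The leading genes of the B cell-like cluster were Cd79a and Cd79b, the signalling chains of the B cell receptor, the B lineage transcription factor gene Ebf1, the MHC class II loading gene H2-DMb2 and the transcription factor gene Mef2c. Cd79a had 1 to 14 UMIs in each of the 11 niche cells and is not listed in the distal table. Ebf1 had UMIs in 16 of the 17 cells and Cd79b in 15. Among kept niche cells, Cd79a had UMIs in 0 of 499 endothelial-led cells, which allows up to 0.601% of cells with a UMI, and in 0.509% of mesenchymal-led cells. Over all kept niche cells outside the immune cells, it had 24 UMIs in 8 cells, with at most 12 in a cell. Cd74 was present in all 17 cells, at 15 to 90 UMIs in the 11 niche cells and 21 to 59 UMIs in the 6 distal cells. Outside the cluster, niche cell 23 (in the Lck Lef1 cluster) and niche cell 42 (in the mixed cluster) each had 1 UMI of Cd79a, Cd79b and Ebf1, with 30 and 19 UMIs of Cd74.

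The Lck Lef1 cluster carried genes known from T lymphocytes but rested on too few fixed markers for a name. Of 14 T cell markers, the tables list 2, and both, Lck and Thy1, were found in at least 25% of its cells. Both were also found in at least 25% of the cells of the mixed cluster. The T cell list summed to 9.48 UMIs per 10000 in niche Lck Lef1 cells, against 4.32 in niche mixed cells. In the distal library it summed to 2.60 in Lck Lef1 cells, against 5.03 in mixed cells. Lck, the kinase next to the T cell receptor, had 17 UMIs in 11 of the 16 cells of the Lck Lef1 cluster. Lef1, a transcription factor gene of T cell development and listed in the niche table alone, had 22 UMIs in 10 of 12 niche cells. Satb1, a chromatin organiser gene, had 19 UMIs in 10 of 16 cells. Dusp10, a phosphatase gene of the MAP kinases, had 32 UMIs in 12, and Igfbp4, which encodes an insulin-like growth factor binding protein, 29 UMIs in 9. Tyrobp had no UMI in the 12 niche cells of this cluster, and Ptprc had UMIs in 8 of them. In all 4 distal cells the marker list with the most UMIs was that of alveolar type 2 cells, as in 7 of the 15 distal and 0 of the 43 niche immune cells. Of these 4, distal cell 7 had no UMI of Lck but 21 of Cd74 and 1 of Ebf1.

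The phagocytes were the deepest cells by cluster median, with 3931.5 UMIs. They carried 5 of the 6 listed classical monocyte markers (Ly6c2, Plac8, Ms4a4c, Fn1 and Lst1) and the interstitial macrophage markers Apoe, Cd14 and Lgmn in at least 25% of cells. Lyz2, the lysozyme gene of myeloid cells, had 0, 105, 57, 2, 191, 94, 11 and 19 UMIs in the 8 niche cells, against 32 and 47 UMIs in the 2 distal cells. It ranged widely within the niche, and the distal values lay inside that range. Alveolar type 2 cells also make Lyz2, and it had UMIs in 27.0% of distal endothelial-led and 34.7% of distal mesenchymal-led cells, at 1.69 and 1.82 per 10000. Other leading genes were the lysosomal genes Ctsb and Psap, Sirpa, which encodes the receptor of CD47, the lipoprotein lipase gene Lpl, and Plin2, a gene of lipid droplets.

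Single phagocytes carried different transcripts. The 2 distal cells had Abcg1, a cholesterol exporter gene, at 10 and 8 UMIs and Ctsd, the cathepsin D gene, at 31 and 21 UMIs, with no UMI of Cd74. Plet1 had 5 and 2 UMIs in these cells. Plet1 and Abcg1 were the alveolar macrophage markers found in at least 25% of the phagocytes whose table lists them. The distal table lists 3 such markers, which together had 27 UMIs in the 2 distal cells. No name was given to these 2 cells. Both distal cells entered at the lowest marker sum, 3 UMIs, all of Coro1a. Of the 8 niche cells, niche cell 29 had 3 UMIs of Abcg1 and 11 of Ctsd. Niche cell 24, the deepest immune cell (8648 UMIs and 2119 genes), had no UMI of Lyz2 but 561 UMIs of Cd74, 179 of H2-Eb1 and 100 of Cst3, the gene of cystatin C. It held 37.2% of the Cd74 UMIs of niche immune cells and was not called a doublet. The marker list with the most UMIs in niche cell 24 was that of conventional dendritic cells, with 13 UMIs of H2-DMb2 and 1 of Naaa. It had no UMI of Ly6c2, Plac8 or Apoe, so the monocyte- and macrophage-like description of the cluster does not cover it. Niche cell 27 had 18 UMIs of Isg15, an interferon-induced ubiquitin-like gene, and 13 of the chemokine gene Cxcl10.

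The mixed cluster held at least 2 sets of niche cells with nearly separate genes. Ccl5, a chemokine gene of cytotoxic lymphocytes, had 149, 89, 173 and 148 UMIs in niche cells 32, 34, 38 and 39, which is 559 of the 560 Ccl5 UMIs in immune cells. Ccl5 is not listed in the distal table. Hdc, the gene of the enzyme that makes histamine, had 14, 6, 13 and 4 UMIs in niche cells 33, 35, 40 and 41, which is all of its 37 UMIs in immune cells. The same 4 cells had 27, 3, 12 and 18 UMIs of the cytokine gene Il6 and 26, 7, 18 and 32 UMIs of the immediate early gene Ier3. Gata2, a transcription factor gene of mast cells and basophils, had 4, 0, 3 and 2 UMIs in them. No name was given to either set, since each rests on 1 or a few markers and 4 cells. The 3 distal cells of the cluster had 0 UMIs of Hdc and of Il6.

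**Figure D3:**
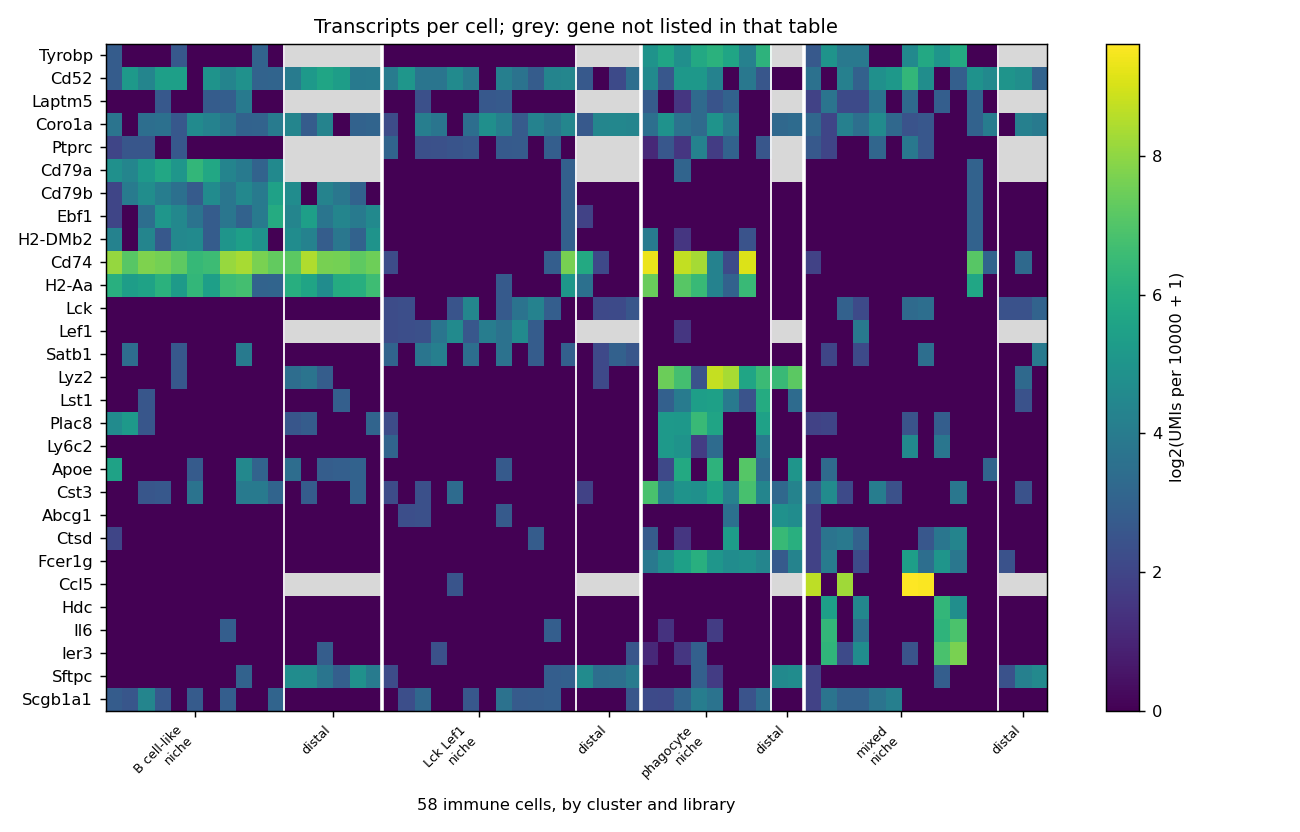
Each column is 1 of the 58 immune cells, grouped by cluster with niche left of distal cells, and each row a gene; colour gives log2 of UMIs per 10000 plus 1, and grey marks a gene the distal table does not list. Cd79a and Cd79b lie mostly in the B cell-like cells and Lyz2 in 9 of the 10 phagocytes, while Ccl5 and Hdc each mark 4 niche cells of the mixed cluster.

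Niche and distal immune cells were then compared on UMIs summed over cells, 105979 in the niche, against 33703 in the distal library over the common genes. A gene counted as past 2-fold where the ratio reached 2-fold and its exact 95% counting interval excluded equality. Of the 803 genes with at least 20 UMIs, 56 were higher in the niche (6.97%) and 21 lower (2.62%), and the median log2 ratio was 0.01. Cells are not replicates, and a single cell could carry a gene past 2-fold.

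The highest ratios included genes of the phagocytes and of the Hdc cells. Plac8 had 130 UMIs in 13 niche cells and 3 UMIs in 3 distal cells (log2 ratio 3.57, 2.21 to 6.08). Ly6c2, a surface protein gene of classical monocytes, had 54 UMIs in 8 niche cells and 0 in distal cells. With the 0 taken as 3 UMIs over the group, it was 5.72-fold higher. This fold carries no error of its own and is not a lower limit, and the exact interval of the log2 ratio began at 2.17. Ifitm3, an interferon-induced membrane protein gene, had 159 UMIs in 18 niche and 6 UMIs in 6 distal cells (2.96, 1.92 to 4.54). The highest value, that of its relative Ifitm1, rested on 3 niche cells, with 80 UMIs there and 0 in distal cells (8.48-fold higher on the same terms, log2 interval from 2.75). On those terms Il6 had 64 niche UMIs and 0 distal UMIs (6.78-fold, log2 interval from 2.42). The cyclin kinase subunit gene Cks2 had 43 and 0 (4.56-fold, log2 interval from 1.83), and Hdc had 37 and 0 (3.92-fold, log2 interval from 1.60). Ier3 had 91 niche and 2 distal UMIs (3.54, 1.96 to 6.92), and S100a6, a calcium-binding protein gene, 92 and 3 (3.07, 1.69 to 5.59). Cst3 had 223 UMIs in niche and 13 in distal cells (2.40, 1.64 to 3.38).

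Several of these ratios rested on niche cells that the distal rule could not have admitted. The 6 niche cells that entered through Tyrobp or Laptm5 held 75 of the 80 Ifitm1, 57 of the 64 Il6, 40 of the 43 Cks2, 31 of the 37 Hdc and 76 of the 91 Ier3 UMIs. With Cd52 and Coro1a alone in the rule, these 5 genes had 5, 7, 3, 6 and 15 niche UMIs, under the 20 UMIs needed for a ratio, so their ratios are not a difference between like cells. Under that rule Plac8 had 118 niche and 3 distal UMIs (3.62, 2.25 to 6.14) and Ly6c2 had 49 and 0, with an interval from 2.22.

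The lowest ratios included genes of the 2 distal phagocytes. Abcg1 had 7 UMIs in 5 niche cells and 18 UMIs in 2 distal cells (-2.96, -4.52 to -1.69). Ctsd had 36 UMIs in 12 niche cells and 52 UMIs in the same 2 distal cells (-2.18, -2.84 to -1.54). With a marker sum of at least 5 UMIs both distal phagocytes were left out, and Ctsd then had 0 distal UMIs, with an exact interval of the log2 ratio from 0.81 upward. Reep5, Akap13 and Foxp1, a transcription factor gene of lymphocytes, had -1.65, -1.65 and -1.48, with 18 to 23 distal UMIs each in 7 to 9 cells. Sgk1, a kinase gene, had 9 niche and 11 distal UMIs (-1.93, -3.39 to -0.53). Krtcap2 had -1.56 and Bnip3l, a mitophagy receptor gene, -1.47, while Psap and Serf2, also among the 12 lowest, did not reach 2-fold (-0.84 and -0.76).

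**Figure D4:**
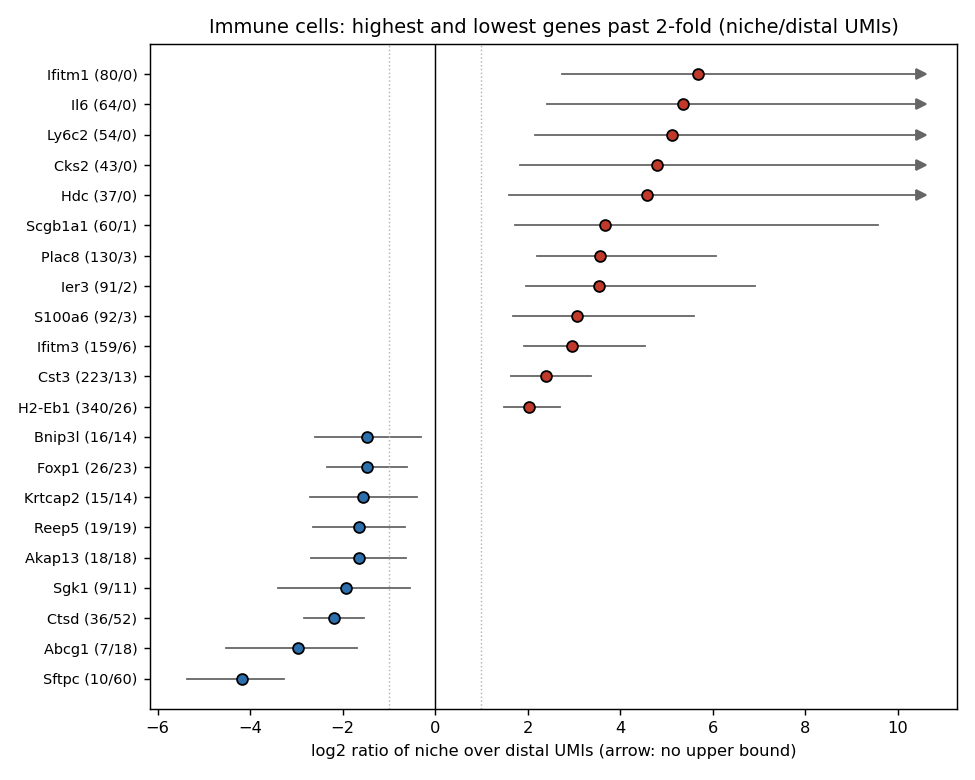
Points give the log2 ratio of niche over distal UMIs in immune cells for the genes past 2-fold among the 12 highest and 12 lowest, with exact 95% counting intervals and the niche and distal UMIs in brackets; arrows mark intervals with no upper bound, and dotted lines mark 2-fold in each direction. Ifitm1 stands highest, at 80 niche and 0 distal UMIs, 75 of the 80 in cells that Tyrobp or Laptm5 admitted, and Sftpc lowest, at 10 and 60.

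Sftpc and Scgb1a1, genes of alveolar type 2 and club cells, stood among these genes and differed in the same direction in cells of other classes. Sftpc had 10 UMIs in 8 niche immune cells and 60 UMIs in all 15 distal immune cells (log2 ratio -4.18, -5.37 to -3.26). Per 10000 UMIs that was 0.926 in niche and 17.7 in distal immune cells, beside 3.38 in niche and 19.6 in distal endothelial-led cells and 1.23 in niche and 20.2 in distal mesenchymal-led cells. Scgb1a1 had 60 UMIs in 27 niche immune cells and 1 UMI in 1 distal immune cell (3.68, 1.72 to 9.58). It stood at 5.56 per 10000 in niche and 0.296 in distal immune cells, beside 4.74 and 1.17 in niche and distal endothelial-led cells and 7.91 and 1.25 in niche and distal mesenchymal-led cells. Immune cells should lack both genes. The part of free RNA in these 2 ratios was not tested.

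Of the 17 gene lists, that of MHC class II presentation had the highest share of measured genes past 2-fold in the niche. Of its 7 measured genes, 5 were higher and 0 lower (median log2 ratio 1.20), against 6.97% and 2.62% of all genes. H2-Eb1, a beta chain gene, had 340 UMIs in niche and 26 in distal immune cells (2.03, 1.48 to 2.69). H2-Ab1, another beta chain gene, had 367 and 33 (1.80, 1.31 to 2.38), and the alpha chain gene H2-Aa 415 and 60 (1.13, 0.74 to 1.55). Cd74 had 1508 and 218 (1.14, 0.93 to 1.35), and the peptide-loading gene H2-DMa 66 and 5 (1.94, 0.77 to 3.74). H2-DMb1 had an interval that included equality (1.20, -0.15 to 3.31), and H2-DMb2, a leading gene of the B cell-like cells, had 0.02 (-0.78 to 0.96).

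These transcription units share a known promoter layout, in which a Y box stands close to the start, so the bases before the start of H2-Aa and H2-Eb1 are shown. Capitals mark the core GATTGG or its reverse complement CCAATC, searched on both strands. The sequences come from RefSeq (GRCm38.p6), 120 bases before each start, 5′ to 3′ on the gene's strand.
H2-Aa (chr17:34287824-34287943, minus strand): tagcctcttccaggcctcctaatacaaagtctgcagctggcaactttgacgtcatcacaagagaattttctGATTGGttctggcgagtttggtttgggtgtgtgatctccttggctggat
H2-Eb1 (chr17:34305747-34305866, plus strand): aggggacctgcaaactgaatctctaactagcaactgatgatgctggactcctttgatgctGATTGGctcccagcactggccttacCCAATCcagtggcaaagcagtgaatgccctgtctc
The core began 49 bases before the start of H2-Aa, and 60 and 35 bases before that of H2-Eb1. In the 250 bases before the start, 7 of the 8 genes of the MHC class II presentation list with an entry held it. Ctss alone did not, and 14.6% of 32851 such windows held it. H2-Ab1 and Cd74 have no entry. A match describes the letters of the window and not a bound site.

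The MHC class II ratios were also taken by cluster, and the difference between clusters was not tested. In B cell-like cells alone, Cd74 had 396 niche and 194 distal UMIs (log2 ratio -0.04, -0.29 to 0.22) and H2-Aa 112 and 56 (-0.07, -0.54 to 0.42). H2-Ab1 had 0.14 (-0.51 to 0.84) and H2-Eb1 0.38 (-0.30 to 1.13) there, and 0 of 5 measured genes of the list were past 2-fold. Genes of the list summed to 345.6 UMIs per 10000 in niche and 340.0 in distal B cell-like cells. In phagocytes they summed to 583.5 per 10000 in the 8 niche cells and 1.49 in the 2 distal cells, and the niche cells ran from 4.93 to 1284. Niche cells 24, 26, 27 and 30 had 561, 225, 140 and 124 UMIs of Cd74, while the other 4 niche phagocytes had 0 to 8. Without niche cell 24, 3 of 7 genes of the list were past 2-fold (median 0.91), and Cd74 had 0.58. With every cell given equal weight, 1 of 7 was (median 0.29), and with every cell thinned to 1200 UMIs, 0 of 6 (median 0.47). Endothelial-led cells, which also carry Cd74, had 31.6 UMIs of it per 10000 in the niche, against 24.8 in the distal library.

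**Figure D5:**
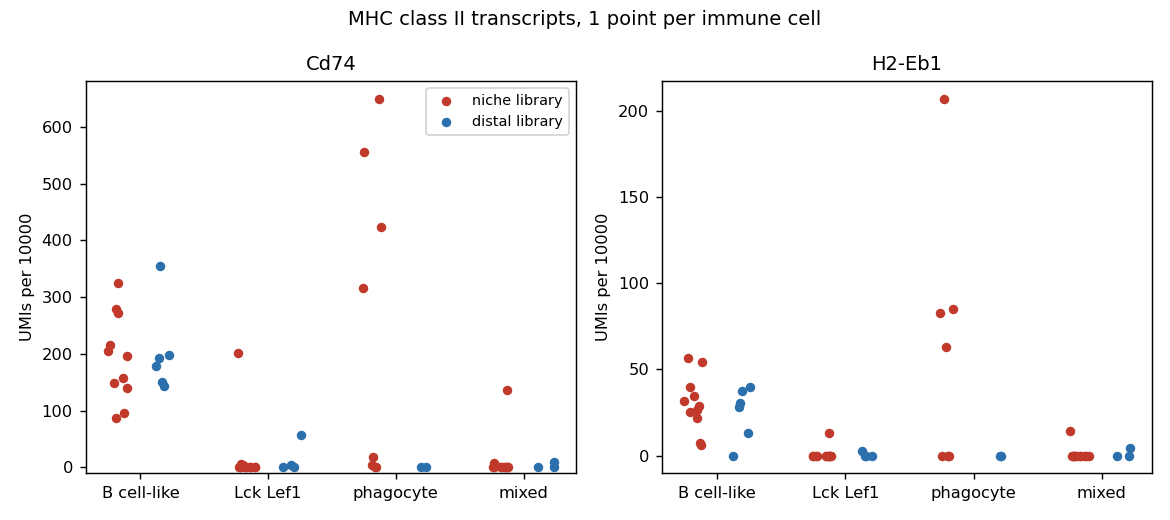
Each point is an immune cell, with its UMIs of Cd74 (left) and H2-Eb1 (right) per 10000, by cluster and with niche left of distal cells. The B cell-like cells of both libraries cover overlapping ranges of Cd74, and the highest points are niche phagocytes, among them niche cell 24 with 561 UMIs of Cd74.

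B cell-like cells were also compared on their own, since they were the largest cluster. Of 185 measured genes, 4 were higher in the niche (2.16%) and 1 was lower (0.54%). The intervals are not adjusted for the number of genes measured. Crip1, which encodes a small zinc-binding protein, had 43 niche and 6 distal UMIs (1.68, 0.54 to 3.30), and mt-Co2, a mitochondrial oxidase subunit gene, 60 and 13 (1.10, 0.26 to 2.13). Cd37, a tetraspanin gene of B cells, and Hmgb1, a chromatin protein gene, each had 18 and 2 (1.82, 0.04 to 5.26). Ier2, an immediate early gene, had 11 and 13 (-1.30, -2.61 to -0.03). The immediate early list, which holds Ier2, ran from 36.0 to 231.5 UMIs per 10000 across the 6 distal B cell-like cells (median 43.0).

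The remaining lists had few measured genes. Of 6 measured interferon response genes, 3 were higher and 1 lower (median 2.08). They were Ifitm3, Isg15, with 27 niche UMIs in 7 cells and 0 distal UMIs, and Cxcl10, with 32 niche UMIs and 1 distal UMI (2.79, 0.77 to 8.70). Ifitm3, Isg15 and Il6 stood at 14.7, 2.50 and 5.93 UMIs per 10000 in niche immune cells, and at 66.7, 6.82 and 7.42 in mesenchymal-led niche cells. Single immune cells held up to 31, 18 and 27 UMIs of these genes. Cxcl10 stood at 2.96 in niche and 0.296 in distal immune cells, beside 41.8 in niche and 1.34 in distal mesenchymal-led cells. The part of free RNA in the ratios of these genes was not tested. Irf1, an interferon regulatory factor gene, was the lower one, with 13 niche and 11 distal UMIs (-1.42, -2.69 to -0.11). Genes of the list summed to 75.5 UMIs per 10000 in niche phagocytes, against 16.3 in distal phagocytes, and to 7.43 in niche B cell-like cells, against 12.5 in distal B cell-like cells. Of 11 genes of MHC class I presentation, 1 was higher and 0 lower (median 0.34). They include the immunoproteasome gene Psmb10 at 1.91 and B2m at 0.53. Pan-leukocyte genes came to 3 higher and 0 lower of 11 (median 0.50), among them Fcer1g, an adaptor gene of Fc receptors, at 2.18 (135 niche and 9 distal UMIs) and Srgn at 1.20. That list holds the rule genes Cd52 (0.50) and Coro1a (0.00), which chose the cells, and its median is the value of Cd52. Immediate early genes came to 3 higher and 0 lower of 14 (median 0.58), among them Nfkbia, which encodes an inhibitor of NF-kB, at 2.02. With Cd52 and Coro1a alone in the rule, 1 of 11 was higher. Glycolysis genes came to 2 of 6 and 0 (median 0.55), with Gapdh at 1.12. Lysosome genes came to 2 higher and 1 lower of 12 (median 0.29), lipid-handling genes 1 of 6 and 1 (0.79, with Apoe at 1.32), iron and antioxidant genes 1 of 10 and 1 (-0.37), and cell cycle genes 2 of 4 and 0 (0.43). Cks2 was 1 of the 2 higher cell cycle genes, and 40 of its 43 niche UMIs lay in cells that the distal rule could not have admitted. Of 14 actin and migration genes, among them the rule gene Coro1a, 0 were past 2-fold (median 0.14). Tmsb4x, which encodes an actin-binding thymosin, had -0.17. Cytokines, their receptors and ITAM adaptors had 2 measured genes each, of which 1, 0 and 1 were higher. The higher cytokine gene was Il6, with 57 of its 64 niche UMIs in cells that the distal rule could not have admitted. The lists of Fc receptors and complement, alternative macrophage and cytotoxic genes had none with 20 UMIs.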

How the data were processed

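Single-cell libraries of niche and distal lung cells (1 each) were compared. The authors deposited raw UMI counts per gene and cell, not normalized. They made libraries with the Chromium Single Cell 3' kit, per the labels' protocols. Cell Ranger 2.1.1 and R 3.4.1 were named as tools, with the build mm10, per the submitters' processing notes. Other upstream filters are not given in the sources used here. A gene missing from a table was taken as 0 in the rule for immune cells and left out of ratios. Listed genes had totals of at least 10 UMIs (niche table) and 12 UMIs (distal table).

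Barcodes under 500 genes or over 10% mitochondrial UMIs were dropped (50 niche, 9 distal), leaving 5139368 niche and 4781222 distal UMIs. Immune cells were clustered over both libraries (500 variable genes, 10 components, 10 neighbours, Leiden resolution 1; Python 3.11.15, scanpy 1.11.5, leidenalg 0.10.2, igraph 0.11.9). Clusters were told apart by the highest mean of Cd79b (B cell-like), of Lyz2 (phagocytes) and, among the rest, of Lck. A cell type name was given to a main cluster where at least 3 markers were found in 25% of its cells. Doublets called with Scrublet were kept. UMIs were summed over immune cells, scaled to common genes, and the log2 ratio took 0.5 UMI added to each sum. Exact 95% conditional binomial intervals were taken on the sums as counted (scipy 1.17.1). Intervals cover counting error only and are not adjusted for the number of genes. Values per 10000 are scaled to all UMIs of the library's cells in question. With 1 library per group no p-value was computed, and single cells did not serve as replicates. The interval step was tested on simulated data with known fold changes.

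The members, gene lists and markers were chosen with earlier results of these data known. Genes named for the comparison were the 12 highest and 12 lowest ranked on the end of the interval closer to 0, leaving out haemoglobin, ribosomal, mitochondrial and unnamed genes, plus the members of each list with the largest bounds, the rule genes, Ptprc, the MHC class II genes and the cell type markers. Some genes that the rule takes are left unreported. Cxcl10 and the single cells described were chosen after their values were seen. The alternatives changed the marker sum, the filters on cells and genes, the scaling, the depth, doublets, the clustering and the cells included.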

Additional observations from a re-analysis of the deposited data

Results flagged for a closer look

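Leukocyte genes also had UMIs in niche cells outside the immune cells. Tyrobp, which is not listed in the distal table, had 43 UMIs there, 32 of them in 8 mesenchymal-led cells (at most 12 in a cell) and 11 in 5 endothelial-led cells. Fcer1g had 153 UMIs there, 109 of them in 30 endothelial-led cells. Ccl5, also not listed in the distal table, had 1241 UMIs there, more than the 560 in immune cells, and 1045 of them lay in 99 of the 786 mesenchymal-led cells. Of those 99 cells, 30 had at least 10 UMIs each and together held 877, with at most 123 in a cell. Free RNA and doublets were not tested as sources of these counts.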

How the results depend on the processing

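No paired analysis was possible because each group is 1 library. Of 78 alternative values of the main results, 66 stayed within the counting interval of the reported share or within 1.5 times the reported count, and 12 moved. With at least 1000 genes per cell, 11 niche and 3 distal immune cells were left. Immune cells were then 1.01% of kept cells in the niche, against 0.2655% in the distal library. The cells left were clustered anew, and the cluster labelled B cell-like held 72.7% of the niche ones. Of these niche cells, niche cell 1 alone was B cell-like in the main clusters. The 72.7% is thus not a share of B cell-like cells. The cluster labelled phagocyte held 66.7% of the distal ones. With a marker sum of at least 5 UMIs, phagocytes were 0.0% of distal immune cells and Ctsd had 0 distal UMIs, so that its log2 ratio of 3.80 is set by the 0.5 UMI added (interval from 0.81, no upper end). The 56 higher and 21 lower genes of 803 measured became 32 and 6 of 339 with cells thinned to 1200 UMIs, and 35 and 3 of 318 with at least 50 UMIs per gene, so the share higher was 6.97%, 9.44% and 11.01%. Without the highest cell of each gene in each library, 11 of 642 were lower. In B cell-like cells alone, an alternative chosen after seeing the data, 4 were higher and 1 lower, H2-Aa had -0.072 and Cd74 -0.038. With Cd52 and Coro1a alone in the rule, also chosen after seeing the data, 44 were higher and 19 lower of 724, and Ifitm1, Il6, Cks2, Hdc and Ier3 were no longer measured. In phagocytes alone, 50 of 305 genes were higher (16.4%) and 25 lower (8.20%), from 8 niche and 2 distal cells. The causes of these shifts were not tested. The 20 UMI minimum limited the comparison to 803 genes.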
